A study of Mus musculus with 4 samples.

Results

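Genes of homologous recombination, crosslink repair, mismatch repair and DNA damage signalling were examined in mouse germinal vesicle (GV) oocytes, which are arrested in meiotic prophase before they mature. The group held 50 genes, listed by symbol and taken from the 53677 symbols of the count files. It was divided by role into 5 meiosis-specific genes, 6 genes of DNA end resection, 3 genes of replication protein A, 14 genes of strand exchange and its mediators, 5 mismatch repair genes, 10 Fanconi genes and 7 damage checkpoint genes. All 50 symbols were found, and 47 passed the filter on low counts and were tested. The other 3, Spo11, Fancf and Atrip, were nearly or wholly without counts in every library.

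RNA was sequenced from Ell3 knockdown (Ell3 KD) and control (Ctrl) oocytes, in 2 libraries per group of 5 oocytes each. Follicle growth had been stimulated in females of both groups with 7.5 IU of PMSG, a hormone preparation, and the oocytes were collected after 48 h. The submitters gave the comparison as a check for effects of transcription on meiosis. The means of the knockdown, what the Ctrl oocytes received, the strain and age of the females and whether libraries came from separate animals are not in the sources used here, so the spread behind the p-values is that between these libraries alone and may be technical. The libraries came from Smart-seq2, which amplifies whole cDNAs out of a few cells. Each library is a bulk of its oocytes, in which fewer contributing cells and less RNA per cell cannot be told apart.

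Library totals were 89632815 and 65722415 counts in Ell3 KD and 45131278 and 48669267 counts in Ctrl, so the groups did not overlap in depth. The 50 genes took between 0.285% and 0.296% of the counts of a library. Values are CPM, counts expressed per 1e+06 of the library total after correction with the TMM factors of edgeR. Ell3, the targeted elongation factor gene, was at 2.88 and 2.80 CPM in the Ell3 KD libraries, against 8.12 and 9.78 CPM in the Ctrl libraries, a log2 fold change of -1.66 ± 0.14 with an edgeR adjusted p of 6.04e-10. It shares 65.6% of its exon length with Serinc4 on the same strand, which had 11 and 11 counts in Ell3 KD and 8 and 5 counts in Ctrl, and how reads of the shared exons were assigned is not known here. The label was checked with markers. Summed over 12 oocyte genes these were at 21636 and 21569 CPM in Ell3 KD and 22227 and 21742 CPM in Ctrl, and 14 granulosa and cumulus genes summed to 51.1 and 53.6 CPM in Ell3 KD and 58.3 and 55.1 CPM in Ctrl. The like sums of the oocyte genes hide changes of single genes. Of these 12 genes 3 were called higher, among them Dppa3 (log2 fold change of 0.49), and 4 lower, among them Nobox (-0.27). Most of the granulosa sum came from Cyp19a1, at means of 17.1 CPM in Ell3 KD and 17.9 CPM in Ctrl, and Nr5a2, at 22.4 and 26.4 CPM. The sum thus says little about the other genes of that list. Amh, Amhr2 and Foxl2 had no count in Ctrl and at most 9, 8 and 4 counts in an Ell3 KD library. Inha was called higher and Nr5a2 lower, and Fshr, at 0.523 CPM in Ell3 KD and 0.955 CPM in Ctrl, was not called. The sum of 8 theca, stroma and vessel genes was 51.5 and 54.6 CPM in Ell3 KD and 67.5 and 65.0 CPM in Ctrl, with Col1a2 at 0 in every library, Dcn called higher and Pecam1 lower. Most of this sum was Pecam1, at means of 48.6 CPM in Ell3 KD and 61.9 CPM in Ctrl. Of 6 blood cell markers, 5 had no count in any library. The part of other cells in the results below was not tested. With all libraries thinned to equal depth, 15 of the 18 members called below were still called, the exceptions being Atr, Brca2 and Mcm8.

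In female mammals, recombination takes place in the fetal ovary. The topoisomerase-like protein SPO11 cuts both DNA strands, the ends are resected, replication protein A coats the exposed single strands, and recombinases such as DMC1 pair them with the homologous chromosome. Some intermediates become crossovers, which hold homologues together until the meiotic divisions. GV oocytes are past these steps, but they still carry repair proteins and mRNAs, and mismatch repair, the Fanconi pathway and the kinases ATM and ATR also serve mitotic cells and the early embryo.

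The mRNA levels of the 50 genes spanned a wide range. Expressed as CPM per kilobase of exon, with exon lengths from GENCODE M21, the mean over the 4 libraries was highest for Rpa3 at 102, followed by Chek1 at 86.3, Rpa1 at 57.5, Mnd1 at 52.1 and Rpa2 at 44.2. Genes of single-strand coating and of the CHK1 kinase thus stood at the top of the order, together with 1 meiosis-specific gene. At the low end were Dmc1 at 0.375, Atm at 0.365, Msh5 at 0.126, Fancf at 0.0413 and Atrip at 0.00569 CPM per kilobase. Spo11 had no count in any library, for which the limit, taken as 3 counts and covering counting error only, was 0.0335 and 0.0456 CPM for the Ell3 KD libraries and 0.0665 and 0.0616 CPM for the Ctrl libraries. By role the median level was 0.375 CPM per kilobase for the meiosis-specific genes, 1.16 for the checkpoint genes, 2.29 for the Fanconi genes, 4.97 for strand exchange and its mediators, 8.54 for end resection, 11.2 for mismatch repair and 57.5 for replication protein A, each over all genes listed. The exon models behind these levels may differ from those used for counting.

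**Figure D1:**
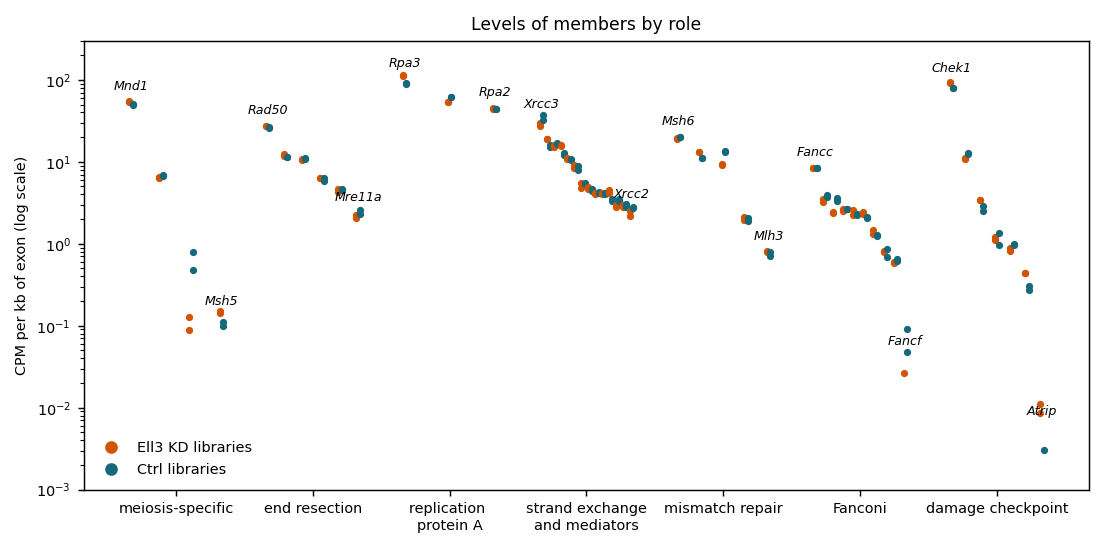
Level of each member with at least 1 count, in CPM per kilobase of exon on a log scale, by role and in descending order within a role. Orange points are the 2 Ell3 KD libraries and teal points the 2 Ctrl libraries, a library at 0 is not drawn, and the highest and lowest member of each role are named. Rpa3 and Chek1 stand highest and Atrip lowest, and Dmc1 is the member whose groups lie farthest apart among those tested.

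Of the 47 members tested, 9 were called higher and 9 lower in Ell3 KD at an edgeR adjusted p under 0.05, or 38.3% called. Among all 17879 genes tested, 42.9% were called, 21.1% higher and 21.8% lower, so the share among members was near the background. At 5 CPM or more, 16 of 42 members were called (38.1%), against 52.5% of all genes at that level. Both Ell3 KD libraries lay above both Ctrl libraries for 15 members and below them for 17, and the groups were apart for 70.7% of all genes tested. The median log2 fold change of the members was 0.022, beside -0.0024 over all genes tested. The changes were small, with 1 member called at 2-fold or more (Dmc1), while 9.39% of all genes tested met that condition. At 5 CPM or more it was met by 0 of 42 members and by 50 of 9703 genes, so such changes were rare at that level in both sets. The 95% interval excluded a change of 2-fold or more in both directions for 45 of the 47 members, the exceptions being Dmc1 and Msh5.

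**Figure D2:**
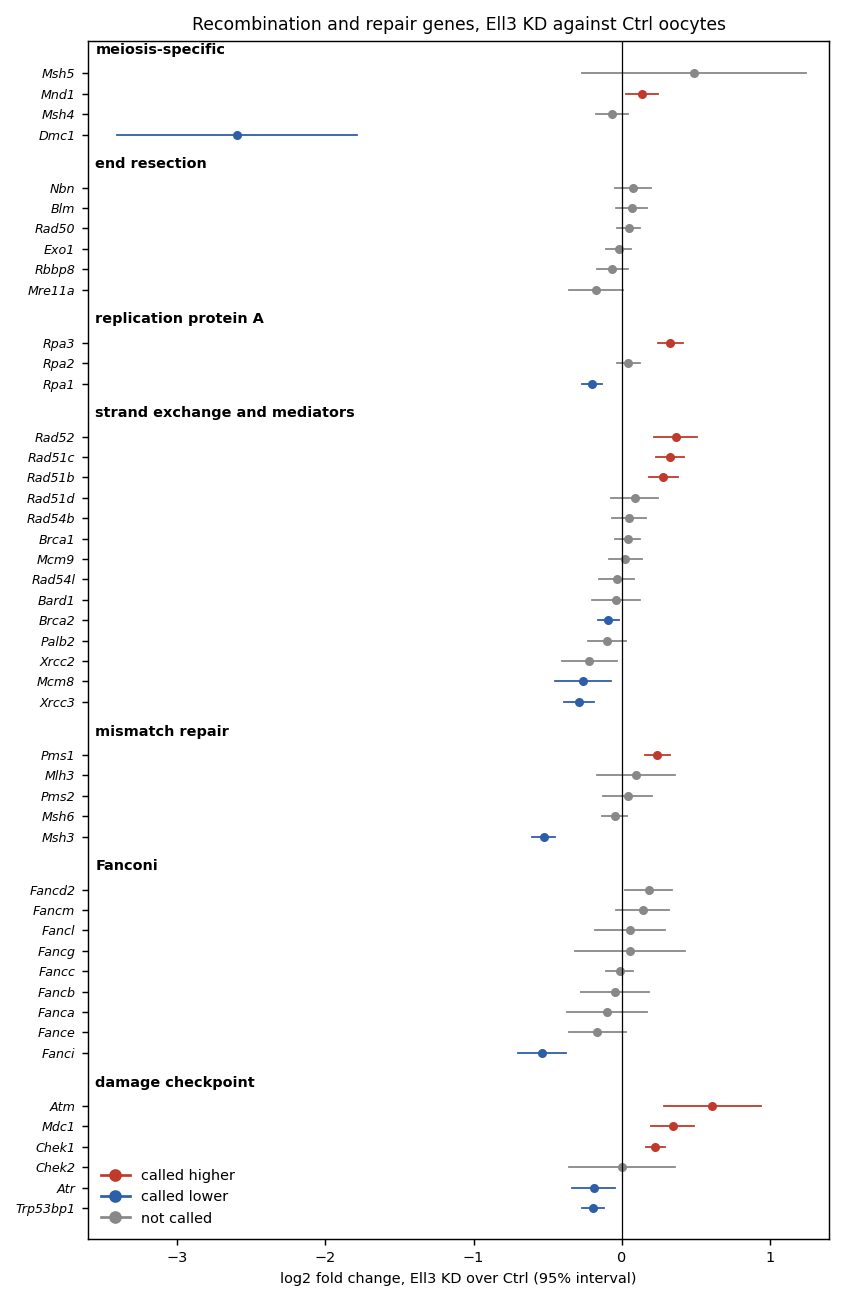
Log2 fold change of the 47 members tested, Ell3 KD over Ctrl, with its 95% interval, grouped by role. Red marks the 9 called higher, blue the 9 called lower and grey those not called; Dmc1 at -2.59 stands apart, and the other intervals except that of Msh5 lie within a 2-fold change.

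The calls were spread unevenly over the roles, and no test of that spread was made. Calls were made for 5 of 6 tested checkpoint genes (3 higher, 2 lower), 2 of 3 genes of replication protein A, 6 of 14 genes of strand exchange and its mediators (3 each way), 2 of 5 mismatch repair genes, 2 of 4 meiosis-specific genes, 1 of 9 Fanconi genes and 0 of 6 genes of end resection. Precision differed between roles, since the median standard error of the log2 fold change was 0.094 for the Fanconi genes and 0.21 for the meiosis-specific genes, against 0.037 for replication protein A and 0.041 for mismatch repair. The median level differed too, at 11.6 CPM among tested Fanconi genes and 85.4 CPM among mismatch repair genes.

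Promoter sequences of 6 members are shown for members that changed in opposite directions, Chek1, Mdc1 and Pms1 being higher and Fanci, Trp53bp1 and Dmc1 lower in Ell3 KD. Each is RefSeq sequence of GRCm38.p6, from 250 bases before to 50 bases after the annotated start, written 5′ to 3′ in the direction of the gene. The windows are chr9:36726609-36726908 (minus strand), chr17:35841248-35841547 (plus strand), chr1:53296979-53297278 (minus strand), chr7:79392088-79392387 (plus strand), chr2:121271358-121271657 (minus strand) and chr15:79605060-79605359 (minus strand). Capitals mark the letters GCGGGAA or their reverse complement TTCCCGC, a core of sites for E2F factors, which are known to drive genes of DNA replication and repair. Other forms of E2F sites were not searched, so a window without capitals may still hold one.
Chek1: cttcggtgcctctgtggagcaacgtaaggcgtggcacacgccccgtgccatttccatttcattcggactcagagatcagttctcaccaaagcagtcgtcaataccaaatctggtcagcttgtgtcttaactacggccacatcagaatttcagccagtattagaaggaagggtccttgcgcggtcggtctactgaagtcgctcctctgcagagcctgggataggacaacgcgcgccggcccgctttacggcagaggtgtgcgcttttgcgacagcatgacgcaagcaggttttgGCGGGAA
Mdc1: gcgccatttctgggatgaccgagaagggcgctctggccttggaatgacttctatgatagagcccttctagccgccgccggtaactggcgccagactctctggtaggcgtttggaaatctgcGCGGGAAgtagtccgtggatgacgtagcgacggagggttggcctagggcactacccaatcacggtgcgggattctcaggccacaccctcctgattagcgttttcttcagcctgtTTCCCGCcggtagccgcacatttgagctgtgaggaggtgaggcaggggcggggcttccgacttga
Pms1: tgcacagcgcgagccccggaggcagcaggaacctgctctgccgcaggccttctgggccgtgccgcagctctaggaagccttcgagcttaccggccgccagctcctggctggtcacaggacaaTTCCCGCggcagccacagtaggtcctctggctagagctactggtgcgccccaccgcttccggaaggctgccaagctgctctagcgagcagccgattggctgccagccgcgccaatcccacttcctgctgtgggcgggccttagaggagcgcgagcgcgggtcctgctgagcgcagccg
Fanci: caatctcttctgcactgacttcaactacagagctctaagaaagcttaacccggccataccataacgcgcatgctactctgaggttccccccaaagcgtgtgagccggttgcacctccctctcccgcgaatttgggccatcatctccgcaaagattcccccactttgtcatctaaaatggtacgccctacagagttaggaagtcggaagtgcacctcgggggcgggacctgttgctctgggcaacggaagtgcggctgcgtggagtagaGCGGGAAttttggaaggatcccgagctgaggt
Trp53bp1: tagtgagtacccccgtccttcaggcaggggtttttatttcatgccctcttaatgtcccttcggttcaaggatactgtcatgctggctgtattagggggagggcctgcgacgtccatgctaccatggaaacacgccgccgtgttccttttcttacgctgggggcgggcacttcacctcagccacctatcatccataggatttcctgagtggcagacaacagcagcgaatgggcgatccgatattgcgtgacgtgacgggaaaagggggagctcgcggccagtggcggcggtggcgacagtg
Dmc1: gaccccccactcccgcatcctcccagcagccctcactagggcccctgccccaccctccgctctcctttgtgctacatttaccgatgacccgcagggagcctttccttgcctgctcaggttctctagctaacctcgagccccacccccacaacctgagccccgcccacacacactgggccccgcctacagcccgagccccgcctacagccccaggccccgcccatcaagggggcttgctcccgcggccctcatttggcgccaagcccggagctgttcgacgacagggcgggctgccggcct

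Sequence was at hand for 41 of the 50 genes, with 45 windows. The E2F letters occurred on either strand in 16 of these 41 genes, against 4.60% of all 32851 windows in the table and 8.90% of 11858 genes tested that had a window. Among members with a window they occurred in 6 of 9 called higher, 2 of 9 called lower and 8 of 21 not called. Over all genes tested the shares were 10.3% of genes called higher, 9.57% of those called lower and 8.03% of those not called, and the median log2 fold change was 0.0066 with the letters and -0.0045 without them. In the background set the letters thus occurred at like shares in both directions. Median GC content was 60.0% in the members' windows and 59.3% in those of all genes tested. Of other motifs searched on both strands, the CRE letters TGACGTCA occurred in 2 of 41 genes (1.79% of all windows), the E-box CACGTG in 2 (7.15%), the NRF1 site in 0 (0.971%) and the CCAAT box in 27 (37.4%). These percentages are of all 32851 windows, whose median GC content was 52.7%. For these motifs the share among genes tested was not counted, so members have no like background here. No motif's letters contain those of another. These counts describe letters in the windows and were made after the calls were known.

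Among the meiosis-specific genes, Dmc1 was lower and Mnd1 slightly higher in Ell3 KD. Dmc1, which encodes the meiotic recombinase, had 19 and 20 counts in the Ell3 KD libraries and 54 and 96 counts in the Ctrl libraries. These were 0.214 and 0.309 CPM in the Ell3 KD libraries, against 1.18 and 1.94 CPM in the Ctrl libraries. The groups did not overlap, as for 70.7% of all genes tested, although the Ctrl libraries differed from each other. The level was 5.97-fold lower, 0.262 ± 0.0671 CPM in Ell3 KD and 1.56 ± 0.539 CPM in Ctrl (each ± on a CPM value here and below is an SD of n = 2 libraries), with a log2 fold change of -2.59 ± 0.39 and an edgeR adjusted p of 7.83e-06. Leaving out any 1 library left the log2 fold change between -2.91 and -2.19. Dmc1 was the member still called with an assumed coefficient of variation of 0.2 (edgeR adjusted p = 1.85e-09). That p is smaller than under the main test, so for Dmc1 this setting was the more lenient and its call there adds no support. Its position is chromosome 15 from 79561497 to 79605109 on the minus strand (GRCm38, as for all positions).

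Mnd1, whose product works with HOP2 to help DMC1 exchange strands, was far more abundant. It was at 47.1 and 48.4 CPM in the Ell3 KD libraries, against 42.7 and 44.1 CPM in the Ctrl libraries, a log2 fold change of 0.14 ± 0.051 with an edgeR adjusted p of 0.0339. The call was lost without Ctrl replicate 1 (edgeR adjusted p = 0.161), without Ell3 KD replicate 1 (adjusted p = 0.0776), without Ell3 KD replicate 2 (adjusted p = 0.190) and with DESeq2 (adjusted p = 0.115). Once trends with GC content and transcript length were removed, its log2 fold change was 0.0094 (edgeR adjusted p = 0.901). Msh4 and Msh5 encode partners that stabilise crossover intermediates. Msh4 was at 45.5 and 43.6 CPM in the Ell3 KD libraries, against 47.2 and 46.3 CPM in the Ctrl libraries, with a log2 fold change of -0.067 ± 0.051, an edgeR adjusted p of 0.309 and a 95% interval from -0.17 to 0.038. Msh5 was at 0.790 and 0.835 CPM in the Ell3 KD libraries, against 0.612 and 0.547 CPM in the Ctrl libraries, with a log2 fold change of 0.49 ± 0.37, an edgeR adjusted p of 0.304 and a wide 95% interval from -0.27 to 1.24. Within this heterodimer, therefore, the mRNA of 1 partner was well detected and that of the other below 1 CPM in every library.

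None of the 6 genes of end resection was called. Their products cut back broken ends: MRE11, RAD50 and NBN form the complex that binds breaks, CtIP (Rbbp8) activates it, and EXO1 and the BLM helicase extend the resection. By edgeR 0 of the 6 had an unadjusted p under 0.05, and DESeq2 also called 0 at either an adjusted or an unadjusted p. Rad50 was at 145 and 148 CPM in Ell3 KD and 139 and 144 CPM in Ctrl (log2 fold change of 0.046 ± 0.037 with an edgeR adjusted p of 0.329), and Nbn at 30.2 and 31.2 CPM in Ell3 KD and 29.0 and 29.3 CPM in Ctrl (log2 fold change of 0.074 ± 0.06 with an edgeR adjusted p of 0.335). Groups stood apart by small margins for both genes, and they were apart for 70.7% of all genes tested. Over the 6 genes the log2 fold changes lay between -0.18 (Mre11a) and 0.074 (Nbn), and the 95% intervals reached from -0.36 to 0.20. Mre11a was called lower without Ctrl replicate 2 alone.

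The 3 subunit genes of replication protein A, which coats single-stranded DNA, went different ways. Rpa3, the smallest subunit, was at 127 and 131 CPM in the Ell3 KD libraries, against 100.1 and 105 CPM in the Ctrl libraries, a log2 fold change of 0.33 ± 0.04 with an edgeR adjusted p of 3.12e-07. Rpa1, the large DNA-binding subunit, was at 296 and 301 CPM in the Ell3 KD libraries, against 341 and 345 CPM in the Ctrl libraries, a log2 fold change of -0.20 ± 0.032 with an edgeR adjusted p of 1.17e-05. Rpa2 was at 133 and 136 CPM in the Ell3 KD libraries, against 130.1 and 130.5 CPM in the Ctrl libraries, with a log2 fold change of 0.044 ± 0.037 and an edgeR adjusted p of 0.355. Thus 1 subunit gene rose, 1 fell and 1 was not called. The groups did not overlap for any of them, as for 70.7% of all genes tested. The ratio of Rpa3 to Rpa1 counts, which does not depend on how libraries are scaled, was 0.428 and 0.435 in the Ell3 KD libraries and 0.293 and 0.305 in the Ctrl libraries. Ratios here and below are for picked pairs, not all of those computed, and use the same counts as the calls. They therefore add no separate evidence.

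Among the mediators of strand exchange, RAD51B, RAD51C, RAD51D and XRCC2 form 1 complex and RAD51C with XRCC3 another, and the genes of these complexes also moved apart. Rad51c was at 68.2 and 69.6 CPM in the Ell3 KD libraries, against 56.5 and 53.4 CPM in the Ctrl libraries, a log2 fold change of 0.33 ± 0.047 with an edgeR adjusted p of 3.83e-06. Rad51b was at 70.4 and 71.6 CPM in the Ell3 KD libraries, against 60.4 and 56.5 CPM in the Ctrl libraries, a log2 fold change of 0.28 ± 0.047 with an edgeR adjusted p of 2.76e-05. Xrcc3, the partner of RAD51C in the smaller complex, was at 80.8 and 76.0 CPM in the Ell3 KD libraries, against 102 and 89.96 CPM in the Ctrl libraries, a log2 fold change of -0.29 ± 0.049 with an edgeR adjusted p of 3.84e-05. So both rising genes and the falling one lay outside the range of the other group in every library. Groups were apart for 70.7% of all genes tested, and these genes were called in the same libraries. The ratio of Rad51c to Xrcc3 counts was 0.843 and 0.916 in the Ell3 KD libraries and 0.556 and 0.594 in the Ctrl libraries. Rad51d had a log2 fold change of 0.086 ± 0.078 with an edgeR adjusted p of 0.397, and Xrcc2 a log2 fold change of -0.22 ± 0.09 with an edgeR adjusted p of 0.0517. Xrcc2 was called lower without Ell3 KD replicate 2 and with the replicate number as a block, so it stood at the edge of the threshold.

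Rad52, an annealing protein gene, was at 24.3 and 25.9 CPM in the Ell3 KD libraries, against 20.1 and 18.9 CPM in the Ctrl libraries, a log2 fold change of 0.36 ± 0.07 with an edgeR adjusted p of 1.50e-04. All libraries of Ell3 KD were above those of Ctrl, and the groups were apart for 70.7% of all genes tested. Brca2, a mediator gene of homologous recombination, was at 209 and 216 CPM in Ell3 KD and 222 and 229.7 CPM in Ctrl (log2 fold change of -0.09 ± 0.035 with an edgeR adjusted p of 0.0368), and Mcm8, a helicase gene of break repair, at 10.4 and 11.0 CPM in Ell3 KD and 13.0 and 12.5 CPM in Ctrl (log2 fold change of -0.26 ± 0.092 with an edgeR adjusted p of 0.0232). These calls were less stable. That of Brca2 was lost without Ctrl replicate 2 (edgeR adjusted p = 0.174), without Ell3 KD replicate 1 (adjusted p = 0.347), without Ell3 KD replicate 2 (adjusted p = 0.0619), at equal depth (adjusted p = 0.0538), with no filter on low counts (adjusted p = 0.0788), with DESeq2 (adjusted p = 0.0944) and with the length and GC trend removed (edgeR adjusted p = 0.462). That of Mcm8 was lost without Ctrl replicate 1 (edgeR adjusted p = 0.0984), without Ell3 KD replicate 1 (adjusted p = 0.180), at equal depth (adjusted p = 0.0555) and with DESeq2 (adjusted p = 0.134). The other 8 of the 14 genes were not called. Besides Xrcc2 and Rad51d these were Brca1, its partner Bard1, the BRCA2 partner Palb2, the translocase genes Rad54l and Rad54b, and Mcm9, the partner of MCM8. Their log2 fold changes lay between -0.22 (Xrcc2) and 0.086 (Rad51d). The abundant Brca1, at 95.4 and 91.8 CPM in Ell3 KD and 89.7 and 92.6 CPM in Ctrl, had a 95% interval from -0.047 to 0.12.

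Of the mismatch repair genes, Msh3 fell and Pms1 rose. MSH3 and MSH6 are alternative recognition subunits, MSH6 for base mismatches and small loops and MSH3 for larger loops. Msh3 was at 104 and 102 CPM in the Ell3 KD libraries, against 151 and 147 CPM in the Ctrl libraries, a log2 fold change of -0.53 ± 0.038 with an edgeR adjusted p of 4.07e-11. Its position is chromosome 13 from 92211872 to 92355003 on the minus strand. It had the smallest p-value of all members, and the log2 fold change stayed between -0.55 and -0.50 under the 11 alternatives tried. Msh6 was at 83.3 and 84.9 CPM in the Ell3 KD libraries, against 86.3 and 87.4 CPM in the Ctrl libraries, with a log2 fold change of -0.047 ± 0.041, an edgeR adjusted p of 0.383 and a 95% interval from -0.13 to 0.038. The ratio of Msh3 to Msh6 counts was 1.25 and 1.20 in the Ell3 KD libraries and 1.75 and 1.68 in the Ctrl libraries, a lower ratio in both Ell3 KD libraries.

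PMS1, PMS2 and MLH3 are MutL proteins, which act after the mismatch is recognised, and MLH3 is also known for its part in meiotic crossovers. Pms1 was at 99.0 and 98.5 CPM in the Ell3 KD libraries, against 83.0 and 84.2 CPM in the Ctrl libraries, a log2 fold change of 0.24 ± 0.041 with an edgeR adjusted p of 3.39e-05. Pms2 had a log2 fold change of 0.041 ± 0.081 with an edgeR adjusted p of 0.719 and Mlh3 a log2 fold change of 0.10 ± 0.13 with an edgeR adjusted p of 0.569. A rise was thus called for 1 of these 3 genes. The ratio of Pms1 to Pms2 counts was 6.23 and 5.65 in the Ell3 KD libraries and 4.95 and 5.41 in the Ctrl libraries.

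Fanci was the 1 Fanconi gene called. In this pathway a core complex that includes the ubiquitin ligase FANCL marks the pair FANCD2-FANCI at DNA crosslinks. Fanci was at 14.2 and 13.6 CPM in the Ell3 KD libraries, against 21.0 and 19.3 CPM in the Ctrl libraries, a log2 fold change of -0.54 ± 0.079 with an edgeR adjusted p of 4.85e-06. Its partner Fancd2 was at 18.1 and 19.6 CPM in the Ell3 KD libraries, against 16.2 and 17.0 CPM in the Ctrl libraries, with a log2 fold change of 0.18 ± 0.077 and an edgeR adjusted p of 0.0588. Fancd2 was called higher with the replicate block, at equal depth and with the length and GC trend removed. The ratio of Fanci to Fancd2 counts was 0.782 and 0.695 in the Ell3 KD libraries and 1.30 and 1.13 in the Ctrl libraries, so the mRNAs of this pair stood in a lower ratio in both Ell3 KD libraries. Exons of Fanci overlap those of Polg of the opposite strand along 16.0% of their bases, and Polg was at 5.13 and 5.27 CPM in Ell3 KD and 4.53 and 4.58 CPM in Ctrl (edgeR adjusted p = 0.274). The sources used here do not say whether counting used strand, so reads of the overlap cannot be assigned with certainty.

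The genes of the Fanconi core complex and its helicase were not called. Fancc, the most abundant, was at 69.3 and 69.8 CPM in the Ell3 KD libraries, against 70.2 and 70.4 CPM in the Ctrl libraries, with a log2 fold change of -0.015 ± 0.044, an edgeR adjusted p of 0.809 and a 95% interval from -0.11 to 0.074; 16.4% of its exon length overlaps the predicted gene Gm16133 on the opposite strand. Fance was at 11.3 and 10.4 CPM in the Ell3 KD libraries, against 12.7 and 11.8 CPM in the Ctrl libraries, with a log2 fold change of -0.17 ± 0.094 and an edgeR adjusted p of 0.154. Fanca, Fancb, Fancg, Fancl and Fancm lay between -0.10 (Fanca) and 0.14 (Fancm). Over all uncalled Fanconi genes the 95% intervals reached from -0.37 to 0.42. Fancf had 4 and 0 counts in Ell3 KD and 7 and 4 counts in Ctrl, and was not tested. Exon overlaps of over 10% with a gene on the other strand also touch Fanca, Fancf and Fancl.

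The damage checkpoint genes held the most calls for their number among the roles, 5 of 6 tested by edgeR, beside 42.9% of all genes tested. DESeq2 called 4 of these genes, and the order of the roles was not tested. ATM answers double-strand breaks and ATR, with its partner ATRIP, single-stranded DNA, and they act through the kinases CHK2 and CHK1. Chek1 was at 426 and 436 CPM in the Ell3 KD libraries, against 365 and 373 CPM in the Ctrl libraries, a log2 fold change of 0.23 ± 0.031 with an edgeR adjusted p of 2.02e-06. Its level per length was above that of the other checkpoint genes. Both Ell3 KD libraries were above both Ctrl libraries, where groups were apart for 70.7% of all genes tested. Atm was at 4.57 and 4.55 CPM in the Ell3 KD libraries, against 2.80 and 3.16 CPM in the Ctrl libraries, a log2 fold change of 0.61 ± 0.16 with an edgeR adjusted p of 0.00272. Among called members it showed the largest rise, at counts of 405 and 294 in Ell3 KD and 128 and 156 in Ctrl. Mdc1, a scaffold that binds the phosphorylated histone at breaks, was at 25.2 and 25.7 CPM in the Ell3 KD libraries, against 21.3 and 18.8 CPM in the Ctrl libraries, a log2 fold change of 0.34 ± 0.071 with an edgeR adjusted p of 3.23e-04. Trp53bp1, which limits resection at breaks, was at 158 and 154 CPM in the Ell3 KD libraries, against 177 and 179.6 CPM in the Ctrl libraries, a log2 fold change of -0.19 ± 0.035 with an edgeR adjusted p of 7.84e-05. Its exons overlap Tubgcp4 of the opposite strand along 15.0% of their bases, and Tubgcp4 fell too, with 4.62 ± 0.162 CPM in Ell3 KD and 8.22 ± 0.459 CPM in Ctrl (log2 fold change of -0.83 ± 0.12 with an edgeR adjusted p of 6.18e-06). The part of this overlap in the Trp53bp1 result was not tested.

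Atr was slightly lower, at 19.3 and 21.3 CPM in Ell3 KD and 23.7 and 22.5 CPM in Ctrl (log2 fold change of -0.19 ± 0.071 with an edgeR adjusted p of 0.0340). This call was lost without Ctrl replicate 1 (edgeR adjusted p = 0.154), without Ell3 KD replicate 1 (adjusted p = 0.374), at equal depth (adjusted p = 0.137), with no filter on low counts (adjusted p = 0.0505), with DESeq2 (adjusted p = 0.171) and with the length and GC trend removed (edgeR adjusted p = 0.189). Chek2 was at 3.61 and 3.36 CPM in Ell3 KD and 2.91 and 4.03 CPM in Ctrl (log2 fold change of 0.0043 ± 0.17 with an edgeR adjusted p of 0.987), and the Ctrl libraries differed more from each other than the group means. Atrip had 7 and 4 counts in Ell3 KD and 1 and 0 in Ctrl, too few for a test, and 16.0% of its exon length is shared with Trex1 on the same strand. Atm, Atr, Atrip and Chek1 all lie on chromosome 9, with Chek1 from 36708482 to 36727065 and Atm from 53439149 to 53536740, both on the minus strand.

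**Figure D3:**
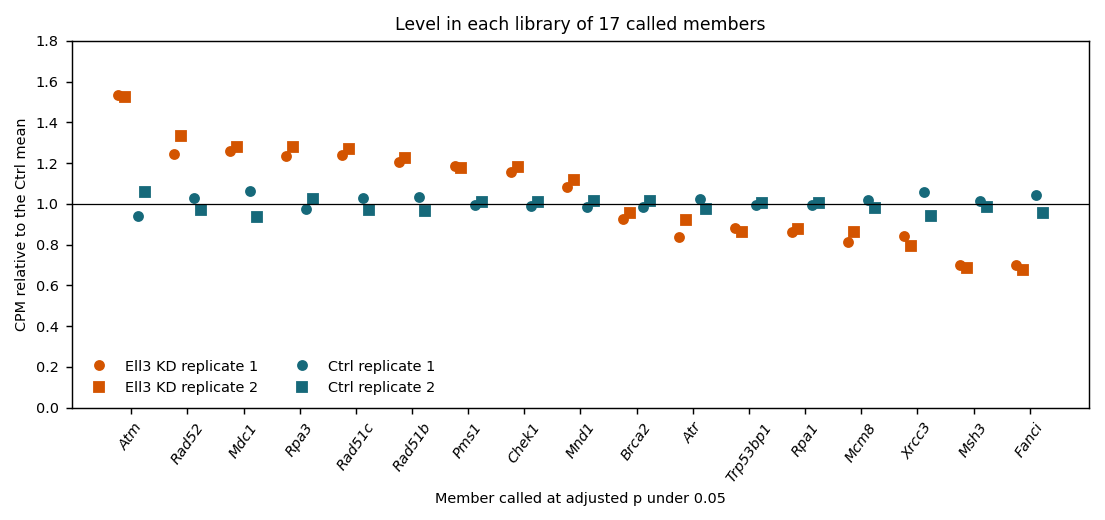
CPM of 17 called members in each library, divided by the mean of the Ctrl libraries; Dmc1 is left out because it lies far below the others. Circles and squares are replicates 1 and 2, orange is Ell3 KD and teal is Ctrl. For every member drawn both Ell3 KD libraries lie on 1 side of both Ctrl libraries, as for 70.7% of all genes tested. The members drawn were chosen by their calls in these same libraries, so their separation adds no evidence. Atm lies highest and Msh3 and Fanci lowest.

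With an assumed coefficient of variation of 0.2 in place of the small spread between these libraries (common biological coefficient of variation 0.0421), Dmc1 was called and the other 17 members were not. For Dmc1 this setting was more lenient than the main test, so its call there adds no support. Under the other 10 alternatives the call held in every case for 14 of the 18 members and was lost under at least 1 for Mnd1, Brca2, Mcm8 and Atr. Differences in transcript length between groups of genes were looked at as well. Across members the Spearman correlation of log2 fold change with exon length was -0.089 (n = 47 genes of the same 4 libraries), and across all genes tested with a length it was -0.12 (n = 17313). Members of up to 5774 bases had a median log2 fold change of 0.045 and longer ones -0.015.

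Many members share their start region with another gene. A protein-coding gene on the opposite strand started within 1000 bases of 17 of the 47 members tested (36.2%), against 15.0% of 13770 protein-coding genes tested. This position was examined after the calls were known. Of the 16 pairs described here, both genes were called in 3, in the same direction in 1 of them. Single genes were called at 42.9% over all genes tested. Pairs of other genes were not counted, so these numbers are no result about shared starts. Pms1 starts 77 bases from Ormdl1, a gene of sphingolipid control, which was at 26.5 ± 0.301 CPM in Ell3 KD and 33.1 ± 1.34 CPM in Ctrl, a log2 fold change of -0.32 ± 0.061 with an edgeR adjusted p of 1.21e-04. Across this shared start the member and its neighbour went opposite ways. Rad51b and Zfyve26, whose starts lie as far as 978 bases apart, also went opposite ways, with a log2 fold change of -0.52 ± 0.087 and an edgeR adjusted p of 3.08e-05 for Zfyve26.

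Rpa1 and Smyd4, 109 bases apart, both fell, and Smyd4 was at 12.8 ± 0.694 CPM in Ell3 KD and 18.6 ± 1.10 CPM in Ctrl, a log2 fold change of -0.54 ± 0.082 with an edgeR adjusted p of 7.66e-06. Next to Atm, the histone gene regulator Npat was at 17.9 ± 1.44 CPM in Ell3 KD and 16.1 ± 0.151 CPM in Ctrl, with a log2 fold change of 0.14 ± 0.08 and an edgeR adjusted p of 0.150 that did not pass the test. Umad1 beside Rpa3, Tex14 beside Rad51c, Zfyve21 beside Xrcc3 and Trmt6 beside Mcm8 were not called either, with log2 fold changes of 0.05, -0.10, -0.049 and -0.12. The reverse also occurred. Pomgnt1 beside Rad54l fell with a log2 fold change of -0.47 ± 0.059 and an edgeR adjusted p of 5.16e-07, and Hscb beside Chek2 rose with a log2 fold change of 0.25 ± 0.05 and an edgeR adjusted p of 2.07e-04, while those members were not called. Ankrd49 beside Mre11a rose with a log2 fold change of 0.15 ± 0.04 and an edgeR adjusted p of 0.00310 and Nbr1 beside Brca1 fell with a log2 fold change of -0.19 ± 0.047 and an edgeR adjusted p of 0.00242, likewise with no call for the member. Whether a difference between a member and its neighbour is larger than their errors was not tested as such.

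**Figure D4:**
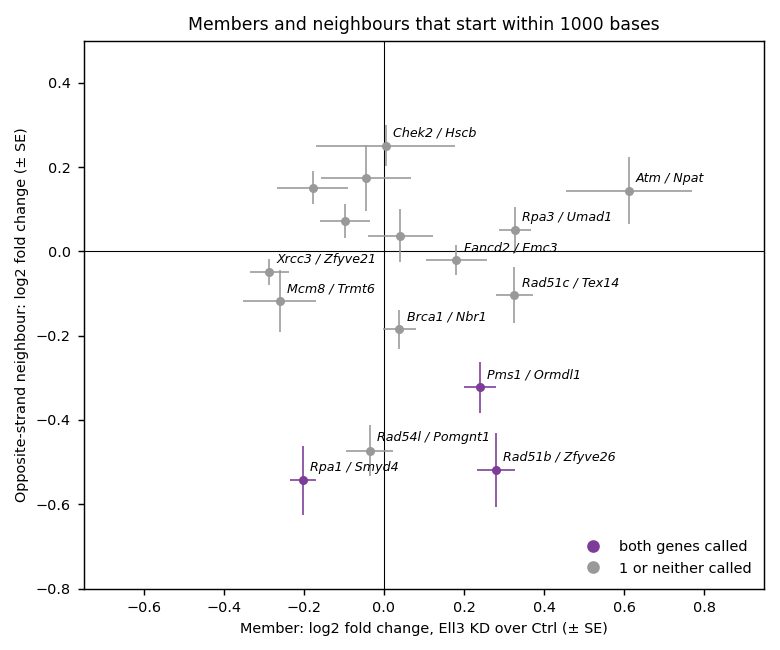
Log2 fold change, Ell3 KD over Ctrl, of 16 members (horizontal axis) and of the opposite-strand neighbour that starts within 1000 bases (vertical axis), each with its standard error. Purple points mark the 3 drawn pairs in which both genes were called; Pms1 with Ormdl1 and Rad51b with Zfyve26 lie in quadrants of opposite sign and Rpa1 with Smyd4 in the lower left.

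Other genes of the same pathways, 84 in 6 lists, were examined in the same way. Of 82 tested, Ell3 KD had 21 higher and 18 lower (47.6% called, beside 42.9% of all genes tested), with a median log2 fold change of 0.027. Among 17 tested genes of meiotic recombination, 6 rose and 0 fell by edgeR (35.3% called). Of all genes tested, 21.1% were called higher and 21.8% lower, and the direction within this list was not tested. At an unadjusted p under 0.05, 1 gene of this list was lower by edgeR, and DESeq2 called 6 higher and 0 lower. Cntd1, a crossover factor gene, was at 7.73 and 7.42 CPM in the Ell3 KD libraries, against 4.44 and 4.29 CPM in the Ctrl libraries, a log2 fold change of 0.80 ± 0.13 with an edgeR adjusted p of 1.47e-05. Over 70.2% of its exon length it overlaps Becn1 of the opposite strand, which was at 50.6 and 50.2 CPM in Ell3 KD and 60.4 and 62.7 CPM in Ctrl and called lower (edgeR adjusted p = 2.35e-05), so its reads are uncertain. Ccnb1ip1, which encodes the crossover regulator HEI10, was at 27.5 and 28.4 CPM in the Ell3 KD libraries, against 21.5 and 20.7 CPM in the Ctrl libraries, a log2 fold change of 0.40 ± 0.065 with an edgeR adjusted p of 1.81e-05, and shares 12.4% of its exon length with Rpph1 on the same strand. Psmc3ip, Tex11, Trip13 and Gm960, the symbol here for the SPO11 partner gene Top6bl, were the other 4 that rose, named here after their values were seen. Gm960 was at 0.914 and 1.11 CPM in Ell3 KD and 0.306 and 0.0405 CPM in Ctrl, low in both groups (log2 fold change of 2.56 ± 0.52 with an edgeR adjusted p of 2.53e-04). Psmc3ip encodes HOP2, the partner of MND1, and had a log2 fold change of 0.25 ± 0.048 with an edgeR adjusted p of 1.49e-04. Of its exon length 21.2% overlaps Mlx of the opposite strand, which was higher too, with a log2 fold change of 0.28 ± 0.05 and an edgeR adjusted p of 8.61e-05, and the part of this overlap was not tested.

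In the list of other homologous recombination genes, 9 of 24 rose and 5 fell. The share called was 58.3% in this list. It was 55.6% for the further Fanconi genes below, 22.2% for mismatch repair, 61.5% for checkpoint genes and 40% for end joining. Over all genes tested 42.9% were called, and 52.5% of those at 5 CPM or more. Differences of the lists from these shares were not tested. Sem1, whose product binds BRCA2, had a log2 fold change of 0.32 ± 0.037 with an edgeR adjusted p of 1.72e-07, and the helicase gene Rtel1 a log2 fold change of -0.57 ± 0.073 with an edgeR adjusted p of 6.98e-07. Beside the Fanconi genes, 1 of 9 further genes rose and 4 fell. Ube2t, the ubiquitin-conjugating enzyme gene that acts with FANCL, was at 836 and 850.0 CPM in the Ell3 KD libraries, against 681 and 684 CPM in the Ctrl libraries, a log2 fold change of 0.31 ± 0.028 with an edgeR adjusted p of 3.85e-09, and the nuclease gene Ercc4 had a log2 fold change of -0.72 ± 0.13 with an edgeR adjusted p of 9.58e-05. Further mismatch repair and repair synthesis genes gave 0 rises and 2 falls of 9 by edgeR, those of Rfc5, a clamp loader subunit gene with 10.7% of its exon length opposite Wsb2 (-0.22 ± 0.044; edgeR adjusted p = 2.58e-04), and of the DNA ligase gene Lig1 (-0.32 ± 0.077; adjusted p = 0.00161). In that list 1 gene was higher by edgeR at an unadjusted p under 0.05, and DESeq2 called 0 higher. Further checkpoint genes gave 4 rises and 4 falls of 13 tested. Rnf168, a ubiquitin ligase gene of break signalling, had a log2 fold change of 0.26 ± 0.04 with an edgeR adjusted p of 9.73e-06, and Rad9a, a checkpoint clamp gene, a log2 fold change of -0.62 ± 0.12 with an edgeR adjusted p of 1.93e-04. Of 10 genes of end joining, the repair route that ligates ends without a template, 1 rose and 3 fell. Dclre1c, the nuclease gene known as Artemis, had a log2 fold change of -0.51 ± 0.12 with an edgeR adjusted p of 8.49e-04 and the polymerase gene Poll a log2 fold change of -0.28 ± 0.073 with an edgeR adjusted p of 0.00306.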

How the data were processed

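Gene counts of 4 libraries were analysed, 2 of Ell3 KD and 2 of Ctrl oocytes, grouped by sample title. The deposited values are raw counts by symbol. Build mm10, the aligner HISAT2 (2.2.1.0), the counter featureCounts and FastQC (0.11.5) are named per the submitters' processing notes. Settings for annotation, strand and multi-mapping reads are not in the sources used here. All 4 libraries entered edgeR 4.0.16 in R 4.3.3 (filterByExpr, TMM, glmQLFit, glmQLFTest, two-sided, no covariates), with Benjamini-Hochberg adjustment over 17879 genes and calls at an adjusted p under 0.05. A standard error is the absolute log2 fold change over the root of the F statistic, and 95% intervals used 26.3 degrees of freedom. The fit was tested on simulated data. Alternatives were RLE scaling, DESeq2 1.42.0, no low-count filter, each library left out, a replicate block, thinning to equal depth, an assumed coefficient of variation of 0.2, and a fit free of trends with GC content and transcript length. Lengths, positions and overlaps came from GENCODE M21 (GRCm38, which mm10 names). Replicates of a group differed by more than counting noise (chi-square per degree of freedom of 3.60 in Ell3 KD and 3.45 in Ctrl). Members and lists were chosen with earlier results of these data known. By the naming rule, values per library are given for the meiosis-specific genes, up to 4 called members of each role with the smallest p, the 2 most abundant per length in each role and called members changed by 0.5 or more on the log2 scale, and 2 called genes are named from each further list; others are said to be named after their values were seen. Some genes of these pathways, and 1 neighbour, are not reported here by name.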

Additional observations from a re-analysis of the deposited data

How the results depend on the processing

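Over the alternatives that leave out 1 library, the members' median log2 fold change ranged from -0.0089 to 0.012, 8 to 9 members were called higher and 6 to 10 lower. There, the lone library of a group was assumed to vary like those of the other. The same settings gave 17 to 21 further pathway genes higher, 12 to 16 lower and 5719 to 6921 calls over all genes. The median was 0.053 with the length and GC trend removed, and 0.0073 to 0.035 under the others; its sign is therefore no result. The sources used here do not say whether replicate numbers pair the libraries. Deviations of same-numbered libraries from their group means correlated at 0.029. With 2 libraries per group this is a single value for both numbers, and it cannot decide the question. With the replicate block 10 members were called higher and 10 lower. DESeq2 called 11 further pathway genes lower, against 18. With the assumed coefficient of variation, 1964 genes were called in all, against 7676; of members 0 were higher and 1 lower by edgeR (1 and 1 at an unadjusted p under 0.05), and of further pathway genes 1 was higher and 0 lower (2 and 3 unadjusted). Of 25 members followed 1 by 1, Fancc, not called, had a log2 fold change of 0.0073 at equal depth and 0.072 with the trend removed, and no other changed sign. The cause of these shifts was not tested. The largest standard errors of log2 fold changes among members were those of Dmc1 (0.39), Msh5 (0.37), Fancg (0.18), Chek2 (0.17) and Atm (0.16), all low in counts; the interval of Msh5 allows more than a 2-fold rise.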
